A study of Rattus norvegicus with 6 samples.

Results

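Libraries with high and low transcript levels of Arntl were compared across all measured genes. Arntl encodes BMAL1, the transcription factor that drives the circadian clock together with CLOCK. The counts of each library were divided by the library's total, and the 3 libraries with the highest Arntl level formed side A and the 3 with the lowest formed side B. All 6 libraries of the study were used. Side A held untreated replicate 1 and treated replicates 1 and 3, and side B held untreated replicates 2 and 3 and treated replicate 2, so both treatments stood on both sides. Arntl was at a CPM of 23.2 (counts scaled to the same library total) in the lowest library of side A and at 9.79 CPM in the highest library of side B. Arntl is left out of every result that follows.

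Every library came from abdominal aortas with aneurysm of Sprague-Dawley rats, 3 with no treatment and 3 after treatment with NP, a nanotherapy described as targeted in the title of the series. All groups therefore carried an aneurysm, and no healthy aorta was among the samples. The sources used here do not give the composition of NP, the method of inducing the aneurysm, the age and sex of the rats or the time of day of collection. The labels do not say that each library came from a separate rat, so the spread between libraries may be partly technical.

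The circadian clock is a feedback loop of transcription that runs in nearly all mammalian cells, including those of the vessel wall. BMAL1 pairs with CLOCK or NPAS2 and binds E-box sequences in the promoters of the Per, Cry, Nr1d and Dbp genes. PER and CRY proteins then block this activator, while the nuclear receptors REV-ERB alpha and beta, encoded by Nr1d1 and Nr1d2, repress transcription of Arntl and Npas2 through ROR elements. The PAR bZIP factors DBP, TEF and HLF activate and NFIL3 represses genes that carry a D-box. In such a loop Arntl and repressor genes such as Nr1d1 peak at roughly opposite times of day.

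Of the 20 clock genes listed, 16 had a promoter window in the RefSeq table of GRCr8, which runs from 250 bases before to 50 bases after the start site. Windows were searched on both strands for the E-box CACGTG, for the D-box written as TTATGTAA or TTACGTAA, and for the ROR element, written as AGGTCA or GGGTCA directly after AANT. No match of one motif overlapped a match of another. An E-box stood in windows of 5 of these genes (Nr1d1, Ciart, Bhlhe40, Bhlhe41 and Tef), a D-box in 1 (Per2) and a ROR element in 0. Of all 33469 windows in the table, 6.42% held the E-box, 1.01% the D-box and 0.481% the ROR element. The 4 stretches printed here are those of genes whose levels were lower in every library of side A than in every library of side B, with the motif in capitals. Ciart had 3 E-boxes, which began 93, 35 and 21 bases before its start site. The stretch of Nr1d1 is from the second of its pair of windows.
Ciart, chr2:186112251-186112350, minus strand: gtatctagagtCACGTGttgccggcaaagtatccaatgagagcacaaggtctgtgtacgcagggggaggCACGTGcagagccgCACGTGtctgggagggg
Nr1d1, chr10:84229593-84229692, minus strand: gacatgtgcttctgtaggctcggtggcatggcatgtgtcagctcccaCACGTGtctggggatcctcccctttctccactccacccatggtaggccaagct
Tef, chr7:115206582-115206681, plus strand: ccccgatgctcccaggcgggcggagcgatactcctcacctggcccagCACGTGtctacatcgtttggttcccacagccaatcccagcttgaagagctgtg
Per2, chr9:99497132-99497231, minus strand: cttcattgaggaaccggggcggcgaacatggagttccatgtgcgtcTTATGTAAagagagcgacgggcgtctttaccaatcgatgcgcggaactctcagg

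Total counts were 26100468 to 30939002 per library, 18324 to 19025 genes had at least 1 count, and 8.54% to 13.9% of counts fell on 13 mitochondrial genes. The summed level of 18 contractile smooth muscle genes, the defining genes of the aortic media, was 4200 to 8178 CPM on side A and 4422 to 7028 CPM on side B. Treated replicate 1, on side A, stood apart from the other libraries. From here on CPM is scaled by TMM, edgeR's correction for differences in library composition. Values of single libraries follow one order, with untreated 1, treated 1 and treated 3 for side A and then untreated 2, untreated 3 and treated 2 for side B. Log2 differences are side A minus side B from edgeR, with a standard error (SE), and are descriptions, since the sides were chosen from these same counts.

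Most clock repressors and the clock outputs Dbp and Tef were lower on side A, and Npas2, neuronal genes and a group of matrix genes were higher. Of 16521 genes that passed the count filter, edgeR's quasi-likelihood test put 0 (0%) past an adjusted p of 0.05. The smallest adjusted p was 0.233, for Dbp, and 1066 genes had an unadjusted p under 0.05, with 538 higher and 528 lower on side A. Limma-voom called 0 genes (1062 at an unadjusted p under 0.05) and DESeq2 called 215 (1.3%), with 127 higher and 88 lower on side A. The p-values order the genes and carry no further weight, because Arntl chose the sides. In 340 genes (2.06%) every library of side A lay above every library of side B and the means differed at least 2-fold, and in 257 genes (1.56%) the reverse held, 3.61% in both directions together. Regardless of fold, side A lay wholly above side B in 924 genes (5.59%) and wholly below it in 1142 (6.91%). A gene that meets the 2-fold rule, with 340 and 257 genes above, is described here as separated. Without treated replicate 1 the counts of separated genes were 875 (5.3%) higher and 421 (2.55%) lower on side A. Over the other single omissions they were 403 to 593 (2.44% to 3.59%) and 323 to 618 (1.96% to 3.74%). With a library left out, sides that do not overlap are thus more frequent among all genes. Of all tested genes 53.9% had a positive log2 difference, and the median was 0.03.

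**Figure D1:**
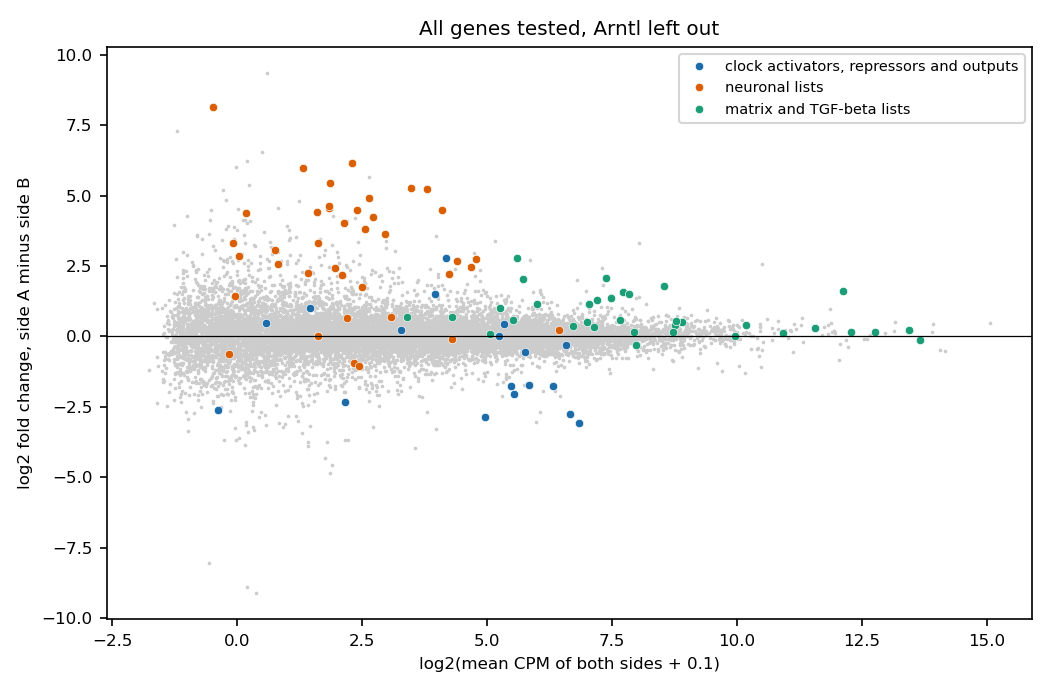
Log2 fold change, side A minus side B (vertical axis), against log2(mean CPM of both sides + 0.1) (horizontal axis) for the 16521 tested genes, with members of the clock, neuronal and matrix lists coloured. Most genes lie near 0, with a median of 0.03, while neuronal genes lie mostly above and clock repressors mostly below.

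Among the activating arm of the clock, Npas2 and Arntl2 were higher on side A, and Clock and Rora overlapped between the sides. Npas2 encodes a partner of BMAL1 that can replace CLOCK. It was at 44.0, 24.9 and 26.0 CPM on side A and at 3.63, 7.80 and 2.46 CPM on side B. Every library of side A was above every library of side B, and the log2 difference was 2.77 (SE 0.47). Npas2 was among the genes known to separate when the sides were proposed, as were Dbp and Nr1d1.

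Clock itself was at 52.2, 35.3 and 52.9 CPM on side A and at 26.0, 37.7 and 39.9 CPM on side B, a log2 difference of 0.44 (SE 0.24). The sides overlapped, because treated replicate 1 lay below 2 libraries of side B. Arntl2 encodes BMAL2, a paralog of BMAL1. It was at 3.37, 3.56 and 3.70 CPM on side A and at 1.78, 1.72 and 1.79 CPM on side B, with little spread within either side and a log2 difference of 1.01 (SE 0.31). Arntl2 was read from few counts, and its separation rests on the small spread.

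The ROR receptors activate transcription at ROR elements, where REV-ERB proteins repress it. Rora was at 1.21, 2.47 and 1.16 CPM on side A and at 1.27, 0.859 and 1.37 CPM on side B, and the sides overlapped. Of the 6 activators listed, 5 were tested, and their median log2 difference was 0.47. The 2 separated with side A higher (against 2.06% of all genes) were Arntl2 and Npas2, the latter known to separate beforehand. Without untreated replicate 3 or without treated replicate 3, 1 was separated with side A higher.

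The 10 clock repressors all passed the count filter. With side A lower, 7 had sides that did not overlap, where 6.91% of all genes had, and 6 were separated, where 1.56% were. Both counts include Nr1d1, which was known to separate when the sides were proposed. With side A higher, 0 were separated. The median of their log2 differences was -1.74, and it was -1.08 without treated replicate 2, which had the highest Per1, Per2, Per3 and Nr1d2 of all libraries. Their summed level was 216 to 310 CPM on side A and 640 to 730 CPM on side B.

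Per1, which encodes a period protein that binds CRY and blocks the activator, was at 25.5, 31.9 and 22.1 CPM on side A and at 56.9, 55.8 and 149 CPM on side B. Its log2 difference was -1.72 (SE 0.42), and treated replicate 2 was far above the other libraries. Per2, another period gene, was at 27.8, 12.0 and 20.9 CPM on side A and at 43.4, 41.0 and 121 CPM on side B, a log2 difference of -1.76 (SE 0.50). Treated replicate 2 was again the highest, and the D-box shown above lies in this gene's promoter window. Per3, the third period gene, was at 4.99, 2.72 and 14.8 CPM on side A and at 37.6, 49.4 and 77.9 CPM on side B. All 3 libraries of side B were above those of side A, and the log2 difference of -2.87 (SE 0.63) was larger in size than those of Per1 and Per2.

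Nr1d1 was at 8.46, 7.76 and 62.3 CPM on side A and at 211, 246 and 75.1 CPM on side B. The sides did not overlap, but treated replicate 3 of side A and treated replicate 2 of side B lay close together, and the log2 difference was -2.76 (SE 0.91). Nr1d1 is uncertain, since its gene overlaps Thra on the opposite strand and the sources used here do not say whether counting used strand. Thra was at 98.9, 44.6 and 91.2 CPM on side A and at 54.4, 71.5 and 59.7 CPM on side B, and its sides overlapped. Nr1d2 was at 10.2, 11.1 and 33.3 CPM on side A and at 59.3, 69.8 and 94.1 CPM on side B. In Nr1d2, too, treated replicate 3 was the highest library of side A, and the log2 difference was -2.03 (SE 0.49).

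Ciart encodes a repressor that binds the BMAL1 and CLOCK complex, and its window held 3 E-boxes. It was at 0.910, 2.07 and 1.30 CPM on side A and at 8.85, 6.11 and 6.74 CPM on side B, a log2 difference of -2.34 (SE 0.40). Cry2, which encodes a cryptochrome, was at 40.8, 37.8 and 53.3 CPM on side A and at 54.5, 77.9 and 60.5 CPM on side B. The sides of Cry2 did not overlap, but its log2 difference of -0.55 (SE 0.21) was under 2-fold.

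The other 3 repressors overlapped between the sides. Cry1, the second cryptochrome gene, was at 12.5, 11.1 and 7.29 CPM on side A and at 5.84, 5.49 and 15.3 CPM on side B. Treated replicate 2 of side B was thus above all 3 libraries of side A, and the log2 difference was 0.22 (SE 0.45). Bhlhe40 and Bhlhe41 encode DEC1 and DEC2, which compete for E-boxes, and each had an E-box in its own window. Their log2 differences were -0.32 (SE 0.31) and 0.00 (SE 0.47).

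The PAR bZIP outputs all 4 passed the filter. The activators Dbp, Tef and Hlf were lower on side A and the repressor Nfil3 was higher, and all 4 were separated. Of all genes 1.56% were separated with side A lower and 2.06% with side A higher. Dbp was known to separate when the sides were proposed. The summed level of the 4 was 75.3 to 96.7 CPM on side A and 308 to 358 CPM on side B. Dbp was at 16.9, 21.8 and 33.9 CPM on side A and at 210, 228 and 179 CPM on side B. The mean of side B was 8.50-fold that of side A, and the log2 difference was -3.09 (SE 0.30).

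Tef, with an E-box in its window, was at 35.8, 30.3 and 43.5 CPM on side A and at 88.3, 122 and 160 CPM on side B, a log2 difference of -1.76 (SE 0.27). Hlf was at 0.337, 0.073 and 0.141 CPM on side A and at 0.725, 1.19 and 1.51 CPM on side B, a log2 difference of -2.60 (SE 0.68), and it was read from few counts. Nfil3, which represses genes through the D-box, was at 22.2, 27.9 and 19.1 CPM on side A and at 8.52, 7.17 and 8.46 CPM on side B. Its log2 difference was 1.52 (SE 0.22), the opposite sign to the 3 activators of the same sites.

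**Figure D2:**
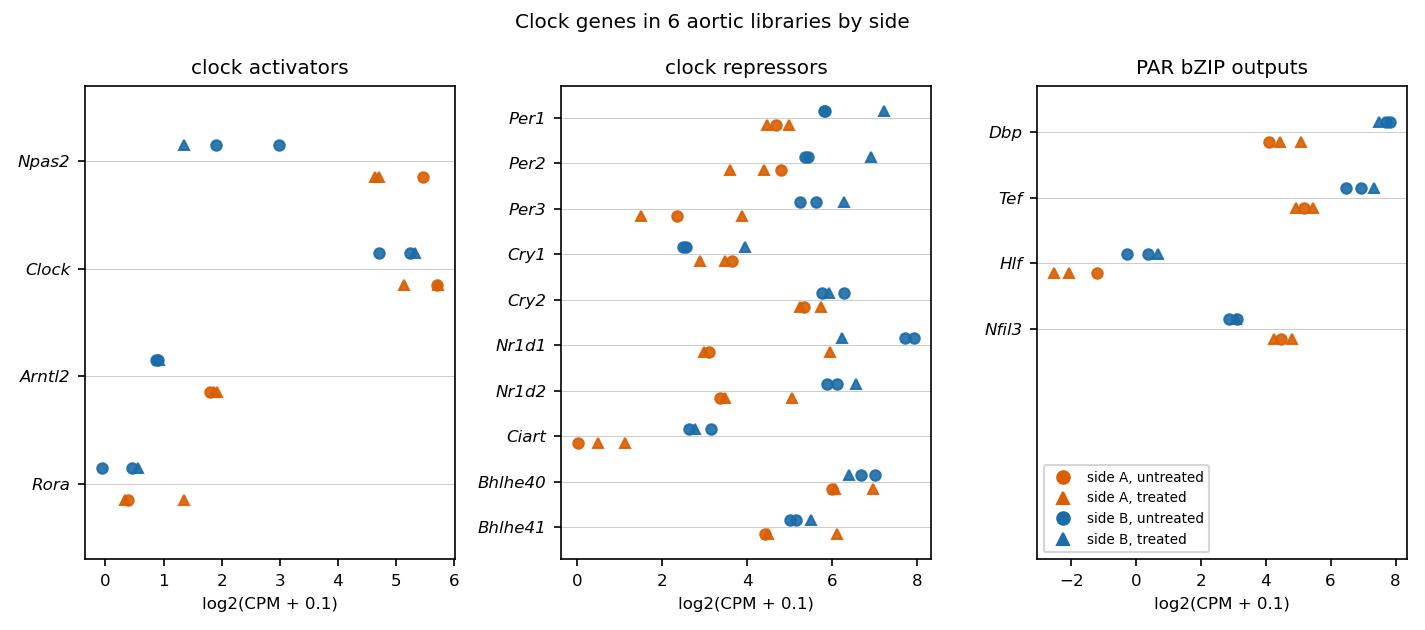
Level of clock activators, repressors and PAR bZIP outputs (vertical axis) in each of the 6 libraries as log2(CPM + 0.1) (horizontal axis), with a colour for each side and a symbol for each treatment. Npas2, Arntl2 and Nfil3 lie higher on side A, and Per3, Nr1d1, Nr1d2, Ciart, Dbp and Tef lie higher on side B.

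Where the sides did not overlap, the direction within each treatment follows from that, and the sizes are given here. Among the untreated libraries 1 library of side A was set against 2 of side B, and among the treated libraries 2 were set against 1, so these are differences of log2(CPM + 0.5) with no test of their own. Npas2 differed by 2.93 in untreated and 3.13 in treated libraries, and Nfil3 by 1.45 and 1.39. Dbp differed by -3.65 and -2.69, and Per3 by -2.99 and -3.48. The treated difference of Dbp was the smaller and that of Per3 the larger in size.

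Nr1d1 differed by -4.67 in untreated and by -1.73 in treated libraries, and Per2 by -0.59 and -2.90. Cry1 had opposite signs, with 1.08 in untreated and -0.73 in treated libraries. A side by treatment term, fitted in edgeR, was past an adjusted p of 0.05 in 0 of 16521 genes (310 at an unadjusted p under 0.05).

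Lists of genes around the clock loop held 0 separated members, where 3.61% of all genes were separated in either direction. At that share lists this short would hold few separated genes, so the 0 does not set them apart. Of 9 tested kinases, phosphatases and ubiquitin ligases that modify clock proteins, 0 were separated, and their median log2 difference was -0.11, or 0.05 without untreated replicate 2. Of 10 genes known as clock-driven in other tissues, 0 were separated, and their median was -0.34, or -0.04 without treated replicate 2. Upp1, which encodes uridine phosphorylase, was the only one of the 10 whose sides did not overlap (against 12.5% of all genes in either direction). It was at 30.5, 35.4 and 40.4 CPM on side A and 28.0, 22.3 and 25.8 CPM on side B. Of 10 tested glucocorticoid response genes 0 were separated, and their median was -0.17, or -0.52 without treated replicate 1 and 0.00 without treated replicate 2. Glucocorticoids follow a daily rhythm in the rat and set the phase of peripheral clocks.

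**Figure D3:**
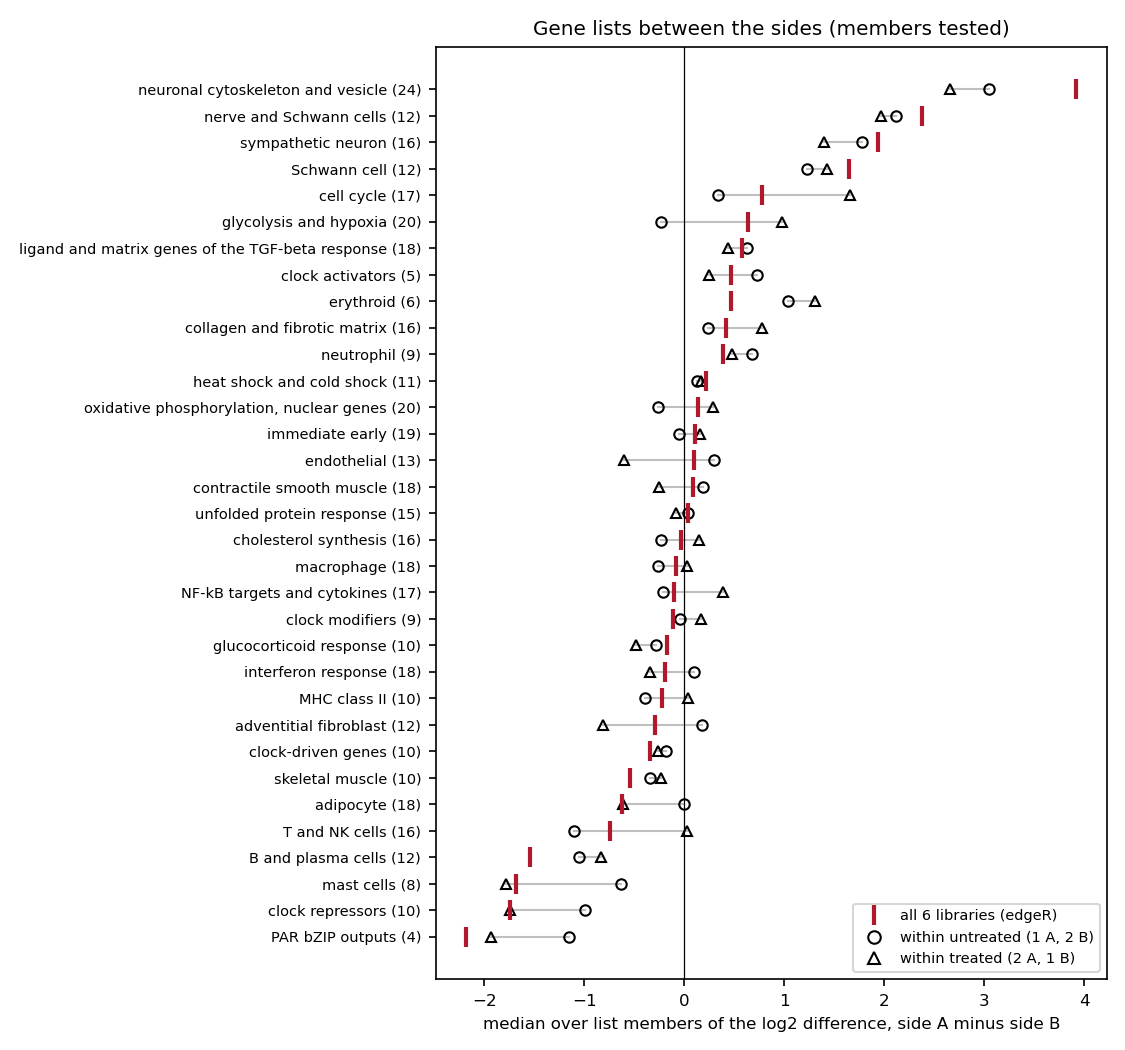
Median log2 difference, side A minus side B, over the tested members of each gene list (horizontal axis), with bars for all 6 libraries by edgeR, circles for the untreated libraries and triangles for the treated ones. Circles and triangles are differences of log2(CPM + 0.5), which are smaller than edgeR's for genes near 0. By edgeR the neuronal and Schwann cell lists lie highest and the PAR bZIP list lies lowest. Clock repressors (-1.74), mast cells (-1.68) and B and plasma cells (-1.54) lie close together above it. The other lists run from -0.74 (T and NK cells) to 0.78 (cell cycle), around the median of 0.03 over all genes.

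Neuronal genes were higher on side A than on side B. The aortic adventitia carries sympathetic nerve fibres, whose cell bodies lie in ganglia beside the aorta, and Schwann cells ensheath these fibres. The lists for sympathetic neurons, neuronal cytoskeleton and vesicles, and Schwann cells were added after these values were seen, so their counts describe the libraries and support nothing further. Fewer cells of a type and less RNA per cell cannot be told apart in RNA of whole tissue. Of 25 genes of the neuronal cytoskeleton and of vesicles, 24 passed the filter and 20 were separated with side A higher (against 2.06% of all genes). The median log2 difference was 3.92. Their summed level was 152 to 429 CPM on side A and 37.0 to 51.0 CPM on side B. As differences of log2(CPM + 0.5), the median was 3.05 within the untreated libraries and 2.66 within the treated libraries. The added 0.5 CPM makes these smaller than edgeR's differences for genes near 0 on side B, so they cannot be set against 3.92.

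Prph encodes peripherin, an intermediate filament of peripheral neurons. It was at 60.6, 32.7 and 36.4 CPM on side A and at 8.74, 4.83 and 9.76 CPM on side B, a log2 difference of 2.48 (SE 0.36). Uchl1, a ubiquitin hydrolase abundant in neurons, was at 44.7, 21.6 and 42.3 CPM on side A and at 6.78, 7.07 and 3.33 CPM on side B, a log2 difference of 2.66 (SE 0.40). In both genes treated replicate 1 had the lowest level of side A and was still above all of side B. Snap25, a membrane fusion protein of synaptic vesicles, was at 11.4, 3.99 and 9.12 CPM on side A and at 0.798, 0.297 and 0.386 CPM on side B, a log2 difference of 4.04 (SE 0.58).

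Stmn3, which binds tubulin, was at 10.5, 3.52 and 6.09 CPM on side A and at 0.326, 0.364 and 0.105 CPM on side B, a log2 difference of 4.63 (SE 0.64). Chgb, a secretory granule protein, was at 7.38, 2.98 and 9.54 CPM on side A and at 0.218, 0.264 and 0.351 CPM on side B, a log2 difference of 4.56 (SE 0.56). Nefm, the medium neurofilament chain, was at 13.0, 3.05 and 12.3 CPM on side A and at 0.254, 0 and 0.14 CPM on side B, a log2 difference of 6.15 (SE 1.0). These 3 genes were near 0 in all libraries of side B. Elavl4, a neuronal RNA-binding protein named after its values were seen, had no count on side B and was at least 36.0-fold higher on side A, with a floor of 3 counts over the side. Mapt, Scg2, Scg3 and Rab3a were the 4 tested members whose sides overlapped.

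Of 20 sympathetic neuron genes 16 were tested and 8 were separated with side A higher (against 2.06% of all genes). The median log2 difference was 1.94. Dbh encodes the enzyme that makes noradrenaline from dopamine. It was at 29.1, 10.9 and 41.1 CPM on side A and at 1.38, 0 and 0.807 CPM on side B, a log2 difference of 5.22 (SE 1.06). Slc6a2, the noradrenaline transporter, was at 20.7, 4.97 and 17.2 CPM on side A and at 1.56, 0.562 and 1.30 CPM on side B, a log2 difference of 3.64 (SE 0.64). Treated replicate 1 was the lowest of side A in both genes.

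Th, the rate-limiting enzyme of catecholamine synthesis, was named after its values were seen. It was at 14.2, 3.88 and 17.2 CPM on side A and at 0.907, 0 and 0.281 CPM on side B. Not every sympathetic gene followed, and Ret, Maob, Slc18a1 and Gata2 had negative log2 differences with overlapping sides. Npy, a co-transmitter of sympathetic fibres, was at 87.9, 69.1 and 125 CPM on side A and at 3.41, 202 and 33.6 CPM on side B. Untreated replicate 3 of side B thus held the highest Npy of all libraries, while its Dbh and Th were listed at 0.

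**Figure D4:**
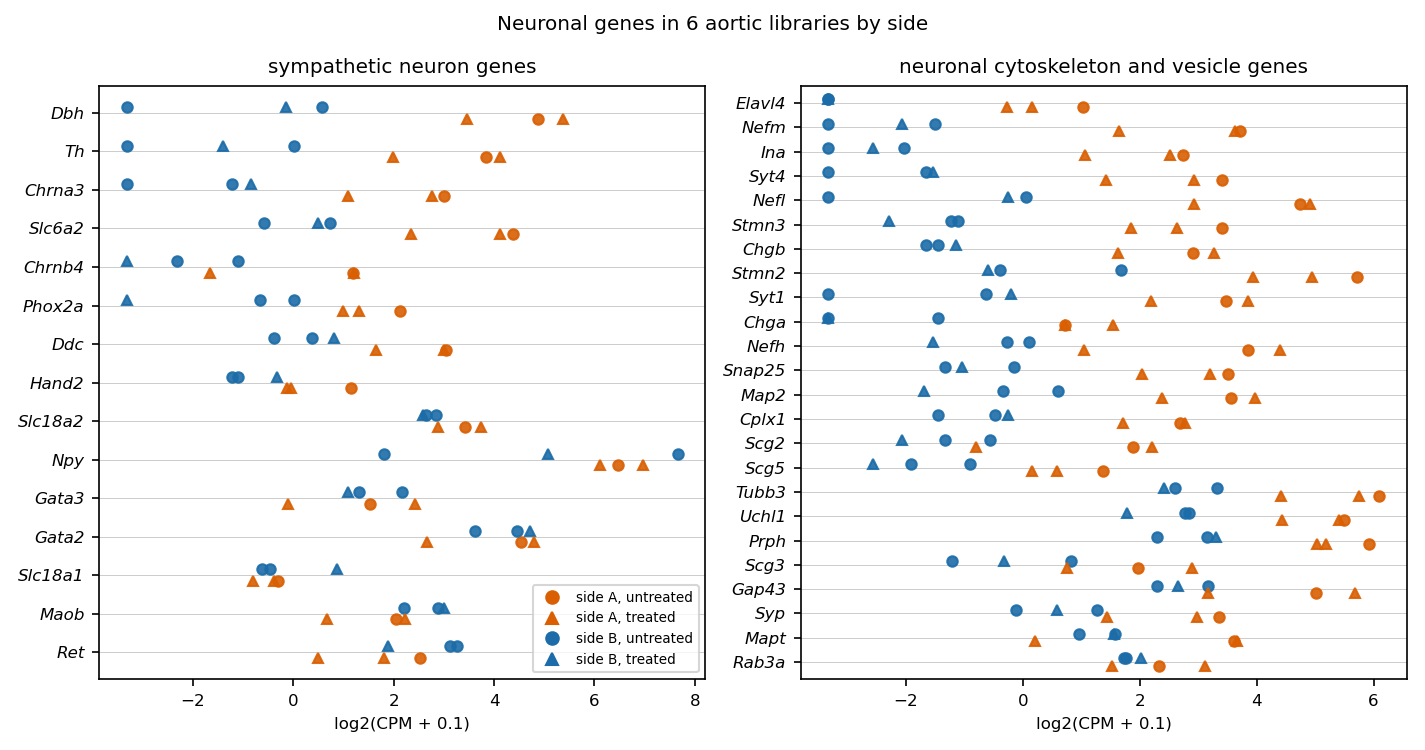
Level of sympathetic neuron genes and of genes of the neuronal cytoskeleton and vesicles (vertical axis) in each of the 6 libraries as log2(CPM + 0.1) (horizontal axis), with a colour for each side and a symbol for each treatment. The 3 libraries of side A lie above the 3 of side B in Dbh, Slc6a2, Prph, Uchl1 and Snap25, while the sides overlap in Npy and Ret.

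All 12 tested Schwann cell genes of 14 listed had a positive log2 difference, with a median of 1.65, but 1 was separated (against 2.06% of all genes). The median was 0.96 without treated replicate 3. Without treated replicate 1 it was 2.03 with 8 genes separated (against 5.3% of all genes). Without untreated replicate 2 it was 2.35 with 7 separated (against 3.59%). The separated gene was Cdh19, a cadherin of the Schwann lineage, at 16.7, 4.93 and 19.2 CPM on side A and 4.06, 1.75 and 2.35 CPM on side B. A first list of 12 nerve and Schwann cell genes, all of them also in the added lists, had 5 separated genes (against 2.06%) and a median of 2.38. That median was 1.35 without treated replicate 3. The count was 10 without treated replicate 1 (5.3% of all genes) and 9 without untreated replicate 2 (3.59%). The neuronal genes divided the libraries as the clock genes did, and their part in the clock result was not tested.

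Several genes of the extracellular matrix and of the response to transforming growth factor beta (TGF-beta) were higher on side A. TGF-beta drives synthesis of elastic and collagen fibres in the vessel wall, and its ligands are stored in the matrix by latent TGF-beta binding proteins. The list of TGF-beta ligands and response genes was added after the values were seen. Of its 18 genes, all tested, 4 were separated with side A higher (against 2.06% of all genes). The median log2 difference was 0.58, or 0.24 without treated replicate 3.

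Fmod encodes fibromodulin, a proteoglycan that binds collagen fibrils. It was at 186, 183 and 171 CPM on side A and at 89.8, 85.7 and 69.2 CPM on side B, a log2 difference of 1.14 (SE 0.17), with little spread within either side. Pmepa1, a feedback inhibitor that TGF-beta induces, was at 226, 268 and 276 CPM on side A and at 77.5, 129 and 91.1 CPM on side B, a log2 difference of 1.37 (SE 0.24). Ltbp2, a microfibril protein, was at 253, 290 and 481 CPM on side A and at 128, 139 and 93.2 CPM on side B, a log2 difference of 1.51 (SE 0.30). Eln, the elastin gene, was at 4989, 4366 and 10780 CPM on side A and at 2169, 3245 and 1183 CPM on side B, a log2 difference of 1.61 (SE 0.51). In Eln and Ltbp2 treated replicate 3 was the highest and treated replicate 2 the lowest of the 6 libraries. Tgfb1, the ligand gene itself, had a log2 difference of 0.15 (SE 0.24), and its sides overlapped.

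Of 18 genes of collagens and fibrotic matrix 16 were tested, 6 were separated with side A higher (against 2.06% of all genes), and the median log2 difference was 0.42. Leaving out treated replicate 2 gave a median of 0.18, and leaving out treated replicate 3 one of 0.19. Ccn2, a matricellular target of TGF-beta listed under its older symbol Ctgf, was at 539, 484 and 704 CPM on side A and at 81.0, 187 and 231 CPM on side B, a log2 difference of 1.79 (SE 0.40). Col8a1, a short-chain collagen of vessel walls, was at 209, 168 and 432 CPM on side A and at 36.8, 59.3 and 93.7 CPM on side B, a log2 difference of 2.09 (SE 0.47). Treated replicate 3 was the highest library in both genes.

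Thbs1, thrombospondin 1, was at 62.0, 39.9 and 154 CPM on side A and at 24.1, 20.7 and 16.7 CPM on side B, a log2 difference of 2.05 (SE 0.49). Lox, the enzyme that cross-links collagen and elastin, was at 276, 244 and 428 CPM on side A and at 116, 144 and 58.9 CPM on side B, a log2 difference of 1.57 (SE 0.38). Col11a1 and Col12a1 were the other 2 separated genes, with log2 differences of 1.16 (SE 0.35) and 1.28 (SE 0.48). The main fibrillar collagens did not separate. Col1a1 had a log2 difference of 0.24 (SE 0.43) and Col3a1 of -0.13 (SE 0.33), and their sides overlapped.

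**Figure D5:**
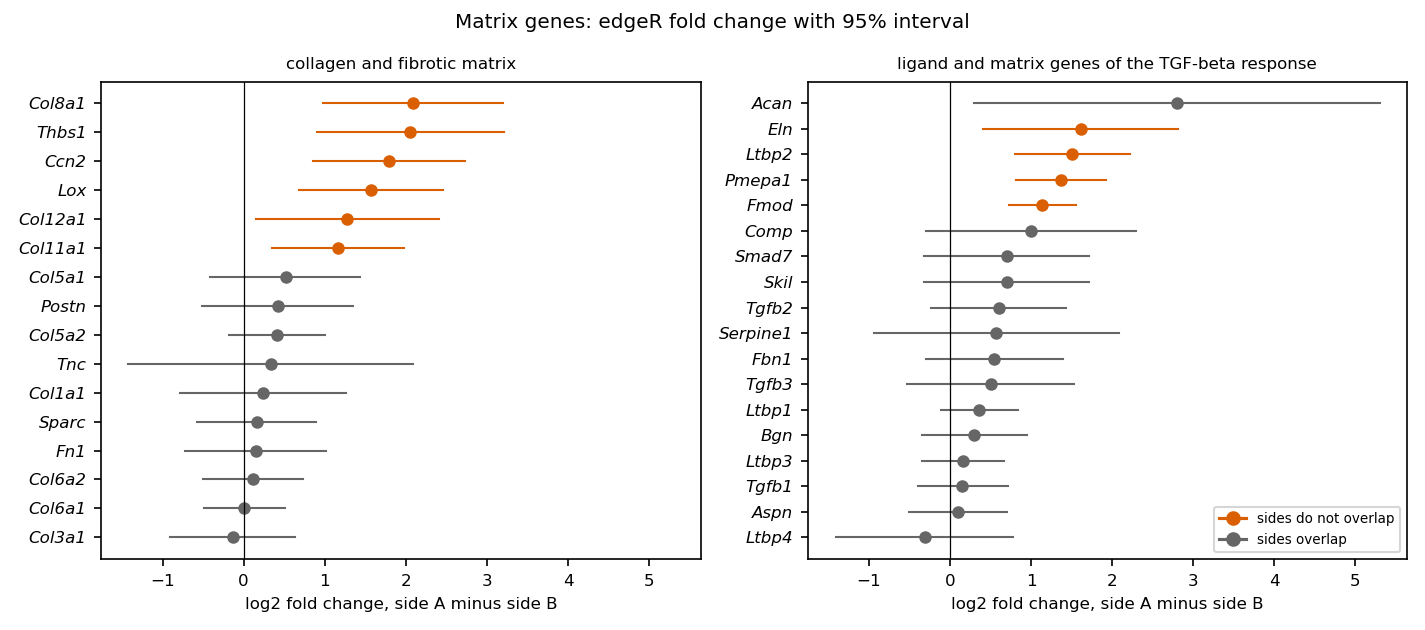
Log2 fold change, side A minus side B, by edgeR (horizontal axis, points with bars for the 95% interval) of collagen and fibrotic matrix genes and of TGF-beta ligand and response genes (vertical axis), with genes whose sides do not overlap in orange and the others in grey. Col8a1, Thbs1, Ccn2, Eln, Lox, Ltbp2, Pmepa1 and Fmod are among the orange genes, and Col1a1 and Col3a1 lie near 0.

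The 10 genes with the smallest p-values and side A higher were Chgb, Stmn3, Ecel1, Nfil3, Eef1a2, Snap25, Prph, Uchl1, Fmod and Vat1l, of which Chgb, Stmn3, Snap25, Prph and Uchl1 belong to the list of neuronal cytoskeleton and vesicles. Ecel1, a membrane endopeptidase of neurons, was at 3.88, 2.76 and 3.91 CPM on side A and at 0.435, 0.595 and 0.386 CPM on side B. Eef1a2, a translation elongation factor of neurons and muscle, had a log2 difference of 2.68, and Vat1l one of 3.14.

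Of the 10 with side A lower, Dbp, Tef and Ciart were clock genes, and the others were Nfkbiz, Nxpe5, Sap25, Rasal1, Leng8, Zfp692 and Cirbp. Nfkbiz, an inducible nuclear regulator of NF-kB targets, was at 6.03, 5.77 and 7.43 CPM on side A and at 18.9, 17.5 and 17.2 CPM on side B, a log2 difference of -1.48 (SE 0.20). The spread within each side was small. Rasal1, which switches off RAS, was at 1.99, 1.09 and 1.80 CPM on side A and at 6.02, 6.02 and 5.76 CPM on side B, a log2 difference of -1.86 (SE 0.34). Leng8, at 203, 168 and 217 CPM against 535, 401 and 383 CPM, and Sap25, at 12.3, 12.2 and 10.6 CPM against 40.4, 35.9 and 22.5 CPM, were also lower in every library of side A. Zfp692 had a log2 difference of -1.31 (SE 0.25) and Nxpe5 of -3.31 (SE 0.48).

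Cirbp encodes a cold-inducible RNA-binding protein whose transcript follows body temperature. It was at 20.9, 24.2 and 21.9 CPM on side A and at 40.04, 40.8 and 36.7 CPM on side B, a log2 difference of -0.81 (SE 0.15). Of 11 tested heat shock and cold shock genes, 1 was separated with side A higher (against 2.06% of all genes). Their median log2 difference was 0.22, or -0.01 without treated replicate 1. The count was 0 without untreated replicate 1 (2.86% of all genes) and 2 without untreated replicate 3 (3.14%). That gene was Hspa1b, at 52.4, 30.5 and 19.4 CPM on side A and 13.7, 11.3 and 19.1 CPM on side B. Reads of Hspa1b can be shared with Hspa1a, a copy of nearly the same sequence, so its values are uncertain. Hspb1 and Hsp90aa1 did not overlap between the sides and differed by less than 2-fold, with log2 differences of 0.74 (SE 0.32) and 0.67 (SE 0.27), and the latter was 0.33 without treated replicate 1.

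Markers of the vessel wall cells were 18 contractile smooth muscle genes, 12 adventitial fibroblast genes and 13 tested endothelial genes. Of these 0 were separated, where 3.61% of all genes were in either direction. At that share lists of this size would hold few separated genes, so the 0 does not set them apart. The median log2 differences were 0.09, -0.29 and 0.10. Their sizes and, for some, their signs rested on single libraries. With a library left out the contractile median ran from -0.18 without treated replicate 3 to 0.43 without treated replicate 2. The endothelial median ran from -0.33 without treated replicate 3 to 0.52 without treated replicate 1, and the fibroblast median from -0.49 to -0.02 without the same libraries. Immediate early genes, which respond to handling and stress, had 1 of 19 tested members separated (Fosl1, side A higher, against 2.06% of all genes). Their median was 0.11, or 0.01 without treated replicate 1 or 3. Macrophage and neutrophil genes had 0 of 18 and 0 of 9 tested members separated (against 3.61% of all genes in either direction), with medians of -0.08 and 0.39. The macrophage median was -0.43 without treated replicate 1 and 0.11 without untreated replicate 2. The neutrophil median ran from -0.18, with untreated replicate 1 left out, to 0.62, with treated replicate 1 left out.

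Mast cell, B cell and T cell lists had negative medians, though those of the lymphocytes turned sign in other settings. Of 8 tested mast cell genes 3 were separated with side A lower (against 1.56% of all genes). The median log2 difference was -1.68, or -1.51 with treatment as a covariate. Kit went the other way, at 1.17 (SE 0.51), and its sides overlapped. Without treated replicate 2 or 3, 1 mast cell gene was separated with side A higher (3.55% and 2.44% of all genes). Given side, the treated minus untreated log2 difference was -1.48 for Cma1, -1.66 for Cpa3 and 0.67 for Kit. Cma1, the chymase of connective tissue mast cells, was at 8.996, 1.56 and 2.64 CPM on side A and at 12.6, 21.5 and 9.26 CPM on side B. Untreated replicate 1 of side A lay just under treated replicate 2 of side B. The count separated with side A lower was 7 without the former (3.74% of all genes) and 6 without the latter (2.43%). The median was -2.96 without untreated replicate 1. All 12 B cell and plasma cell genes had negative differences, with 2 separated (against 1.56% of all genes). Their median was -1.54, which was -0.31 without untreated replicate 2. Leaving out untreated replicate 3 gave a count of 6 (2.44% of all genes), and leaving out treated replicate 1 a count of 1 (2.55%). Of 16 tested genes of T and NK cells 1 was separated with side A lower (against 1.56% of all genes). The median of T and NK cell genes was -0.74, or -1.01 to -0.15 with a library left out. In differences of log2(CPM + 0.5), the T and NK cell median was -1.10 within untreated libraries and 0.03 within treated libraries. With the replicate number as a block, the side rests on treated replicate 3 against untreated replicate 3. The medians of B and of T and NK cells then turned to 0.27 and 0.32.

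The remaining lists had at most 1 separated member each, where 3.61% of all genes were separated in either direction. Cell cycle genes had positive differences in 17 of 17 tested members with 0 separated, and a median of 0.78, or 1.59 without untreated replicate 2 and 0.46 without untreated replicate 3. Glycolysis and hypoxia genes had 1 of 20 separated and a median of 0.64, which was -0.12 without treated replicate 1. In Slc2a1, the glucose transporter GLUT1, that library was at 637 CPM and the others were between 48.6 and 80.8 CPM. Nuclear genes of oxidative phosphorylation had 0 of 20 separated and a median of 0.14, which was -0.28 without treated replicate 1. Erythroid genes had 1 of 6 separated and a median of 0.47, or 0.09 to 1.70 with a library left out, and skeletal muscle genes 1 of 10 and a median of -0.54. Adipocyte genes had a median of -0.62 over 18 tested members, with 0 separated and a range of -1.45 to -0.26 with a library left out. Side A held more treated libraries than side B, so a treatment difference can enter this median. With treatment as a covariate the adipocyte median was -0.3. In differences of log2(CPM + 0.5) it was -0.0 within untreated and -0.61 within treated libraries. The medians of interferon response, MHC class II, NF-kB target, cholesterol synthesis and unfolded protein response genes were -0.19, -0.22, -0.10, -0.03 and 0.04, with 0 separated in each. Without treated replicate 1 the interferon median turned to 0.20, the NF-kB median was -0.27 and the unfolded protein response median was -0.10. Without untreated replicate 2 the NF-kB median turned to 0.34, the cholesterol median to 0.15, and the MHC class II median was near 0.

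The sides are not the treatment groups, so treatment could be compared with the side held as a term in the model, a contrast that the choice of sides did not use. EdgeR put 0 of 16521 genes (0%) past an adjusted p of 0.05, the smallest adjusted p was 1, and 212 genes had an unadjusted p under 0.05. Without the side term the numbers were 0 and 319, with a smallest adjusted p of 0.925. Limma-voom called 0 genes (215 at an unadjusted p under 0.05), and DESeq2 called 23 (0.139%), of which 2 were higher and 21 lower in treated aortas. The biological coefficient of variation, edgeR's measure of spread between libraries of a group, was 37.8% with side as the term and 39.8% with side and treatment.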

How the data were processed

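Total RNA of 6 aortic libraries was sequenced. The deposited table held 24988 genes with a whole-number read count and an FPKM value for each library. The counts deposited by the authors were not normalized, and the FPKM values deposited by the authors correct them for gene length and depth. HISAT2 2.0.4, an aligner, is named per the submitters' processing notes, and SOAPnuke, a read filter, in the design text of the series. The sources used here do not give the counting tool, genome build or strand setting. Counts of 2 were more frequent than counts of 1 in each library, and it is unclear whether 1 count is 1 read or 1 fragment. Of the gene names 16795 matched a RefSeq symbol of GRCr8.

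Sides were set from Arntl CPM by library total, and Arntl FPKM gave the same sides. Genes were kept with filterByExpr of edgeR 4.0.16 (R 4.3.3) at a minimum count of 10 and fitted by the quasi-likelihood test with TMM and side as the term. The filter took its group size of 3 from the sides, so a gene could pass through 1 side alone. Nefm, with 387, 84 and 348 counts on side A and 7, 0 and 4 on side B, passed in this way. Benjamini-Hochberg adjustment ran over all 16521 genes, with a threshold of 0.05. DESeq2 1.42.0, limma-voom (limma 3.58.1), other scalings, other terms and each library left out were alternatives. A gene was called separated when the sides did not overlap and the mean CPM differed at least 2-fold.

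The members and the 29 gene lists were chosen with earlier results of these data known, and 4 lists, the side by treatment term and the counts of separated genes without single libraries were added after the values were seen. Of 481 list entries, 15 were not matched to the table and 17 were under the filter. Genes named are the clock lists, up to 10 per direction of smallest p with a usual symbol, at least 2 CPM on the higher side and no overlap, and up to 4 of each other list. Genes beyond these were chosen after their values were seen, among them Th, Npy, Elavl4, Thra, Tgfb1, Col1a1, Col3a1, Col11a1 and Col12a1. Log2 CPM of treated replicate 1 correlated with the other libraries at 0.925 to 0.951, and other pairs at 0.943 to 0.977. Some list members are not reported here singly. Precision rests on 3 libraries a side, with 26100468 to 30939002 counts each.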

Additional observations from a re-analysis of the deposited data

Results flagged for a closer look

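In 13 of 33 lists the mean score of side A minus side B had opposite signs in the treatments, and in 2 of them every library of side A followed its treatment's direction. These 2 and a clock gene are given here. The mean score of the glycolysis and hypoxia list, in log2 CPM after centring each gene over the libraries, was -0.20 on side A relative to side B among untreated libraries and 1.04 among treated libraries, with treated replicate 1 at a score of 1.41. The score of the NF-kB target and cytokine list differed by -0.26 in untreated and 0.36 in treated libraries. Among the other lists, the endothelial score differed by 0.29 and -0.52 and the contractile score by 0.30 and -0.24, with libraries that overlapped in the treated group. These list differences between treatments were not tested. Cry1 differed by 1.08 in untreated and -0.73 in treated libraries, and its side by treatment term in edgeR had an unadjusted p of 0.03 and an adjusted p of 1.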

How the results depend on the processing

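DESeq2 called 215 genes between the sides and 23 between treatments given side, where edgeR called 0 and 0. By separation of the sides alone, 597 genes met the 2-fold rule. Under every other edgeR setting and limma-voom the counts stayed at 0, including DESeq2's size factors, library totals, no count filter, treatment as a covariate and each library left out. The replicate numbers did not pair the libraries, with correlations of deviations of -0.17, 0.07 and -0.27 for numbers 1, 2 and 3. With the replicate block the side rests on a single pair, treated replicate 3 against untreated replicate 3, where side and treatment cannot be told apart. The medians then moved to -1.02 for clock repressors, 0.79 for collagens and 0.99 for TGF-beta genes. They moved to 4.50 for nerve and Schwann cell genes and 3.35 for Schwann cell genes. The block also turned the sign of the medians of B and plasma cell genes to 0.27, T and NK cell genes to 0.32, neutrophil genes to -0.70, oxidative phosphorylation genes to -0.39, erythroid genes to -0.15, cholesterol synthesis genes to 0.27, clock modifiers to 0.24 and unfolded protein response genes to -0.02, and moved that of contractile genes to 0.94. With 1 library left out in turn the list medians ranged from 0.51 to 0.66 for clock activators, -1.99 to -1.08 for clock repressors, -2.40 to -1.94 for PAR bZIP outputs, and 0.24 to 0.81 for TGF-beta genes. Of the 147 named genes 66 had sides that did not overlap, and 0 of these changed sign under any alternative. Sides that do not overlap largely fix the sign in advance, so this lends those genes no support. Among all named genes 24 changed sign under at least 1 alternative. With 3 libraries a side, genes at a few counts, such as Hlf, are read with low precision, and a missed threshold does not show that levels were alike.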
